A study of Mus musculus with 2 samples.

Results

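The spectrins, ankyrins and adducins of neonatal mouse brain were examined as 9 genes chosen by name: Sptan1, Sptbn1, Sptbn4, Ank1, Ank2, Ank3, Add1, Add2 and Add3. They had 138 annotated transcripts among the 109463 transcripts of 45578 genes in the table of ribosome footprints. A transcript was assigned to a gene by its name without the trailing number, and no measured value entered the choice. Footprints are the mRNA stretches of 25 to 35 nucleotides that ribosomes protect from RNase I, taken here from the polysomal fractions of whole brain. Both animals belonged to a single control group on the FVB strain at postnatal day 5, with the genotype Smn+/-; SMN2tg/0. Each animal thus lacked 1 functional copy of mouse Smn and carried a human SMN2 transgene, and no group without these alleles was analysed here. The labels call the samples biological replicates 1 and 2.

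Spectrin is a long flexible rod built from alpha and beta chains, and rods joined by short actin filaments form a lattice under the plasma membrane. Adducin caps those filaments and holds spectrin to them, while ankyrins tie beta spectrin to channels, transporters and adhesion molecules. In neurons this lattice repeats along the axon, and Ank3 with Sptbn4 gathers sodium and potassium channels at the axon initial segment and at nodes of Ranvier.

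The library of replicate 1 held 1866831 footprints and that of replicate 2 held 5261878. Levels in CPM, the counts of a gene per 1000000 counts of its library, have a floor of 3 counts, which is 1.61 CPM for replicate 1 and 0.570 CPM for replicate 2. All 8 neuronal markers were found, with a summed level of 6119 CPM in replicate 1 and 4658 CPM in replicate 2. The 5 oligodendrocyte markers summed to 638 and 967 CPM. The 8 red cell markers summed to 2566 and 1773 CPM, nearly all of it from 4 globin genes, and the 6 skeletal muscle markers to 79.3 and 63.1 CPM. In whole brain, fewer cells of a type and less RNA per cell cannot be told apart.

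All 9 genes carried footprints in both libraries, and all passed the minimum mean count of 10. Together they held 6491 footprints in replicate 1 and 21520 in replicate 2. Their share of the library was 0.348% in the first replicate, with a 95% Clopper-Pearson interval of 0.339 to 0.356, and 0.409% in the second, with 0.404 to 0.414. The intervals cover counting error only, since PCR copies of a fragment are not independent molecules. The 3 spectrin genes accounted for 55.6% of the group's CPM, the 3 ankyrins for 23.9% and the 3 adducins for 20.4%.

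A long coding sequence collects more footprints at the same ribosome density, so genes were compared by CPM per 1000 nucleotides (nt) of their longest annotated coding sequence, called the level below. Coding sequences ran from 2121 nt for Add3 to 8612 nt for Ank3. Across the 9 genes neither the count (Spearman's rho 0.13) nor the level (rho -0.25) followed coding length closely; the genes share both libraries and were not chosen at random. Among the 13317 coding genes that passed the same minimum, the median level was 23.5, and 7 of the 9 genes lay above it.

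**Figure D1:**
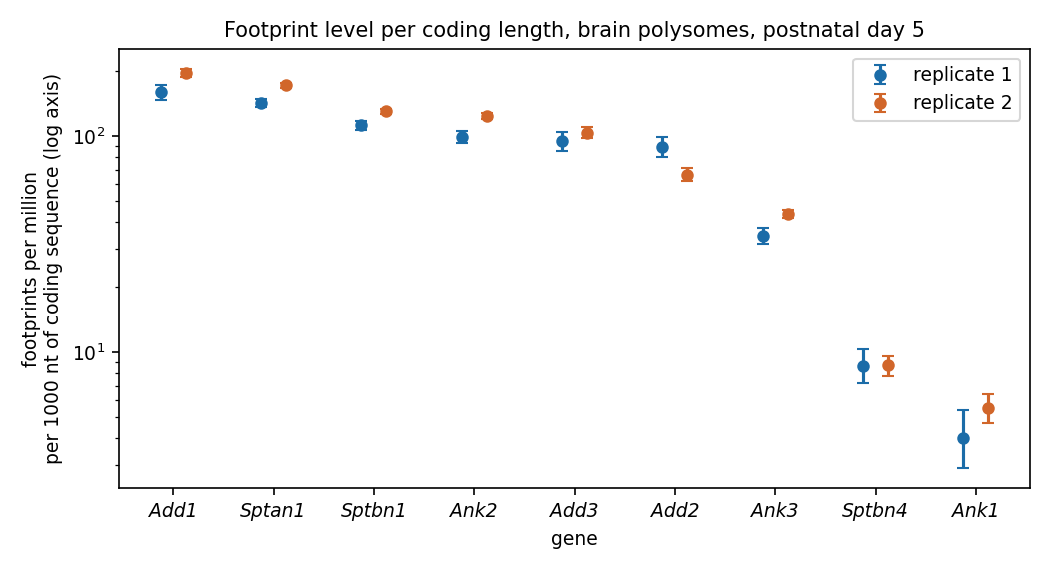
Footprint level of each gene, in CPM per 1000 nt of coding sequence on a log axis, for replicate 1 and replicate 2, with 95% Clopper-Pearson intervals for counting error. Add1 had the highest mean level at 178 and Ank1 the lowest at 4.77, and the replicates of most genes lay close together on this scale.

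Add1 headed the order, followed by Sptan1, Sptbn1, Ank2, Add3, Add2, Ank3, Sptbn4 and Ank1. Each neighbouring pair stood in this order in both replicates. The ranges over the 2 replicates overlapped for Add1 and Sptan1, for Sptbn1 and Ank2, and for Ank2 and Add3. These neighbours were thus not separated by their ranges, which do not take into account that genes of a library share its scaling. The other 5 neighbouring pairs did not overlap. The widest step was from Ank3 to Sptbn4, a fold of 4.50. Ank3, Sptbn4 and Ank1 held the last 3 places under each of 5 ways of dividing by length, whereas Add1 fell to place 4 when the whole transcript length was used.

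Sptan1 (ENSMUSG00000057738) encodes alpha-II spectrin, the alpha chain of cells other than red cells. It had 1990 footprints in replicate 1 and 6788 in replicate 2, the highest count of the group. Its level was 142 in replicate 1 and 172 in replicate 2, or 157 ± 21.1 (SD, n = 2). That placed it at percentile 90.6 of all coding genes and at percentile 99.3 of the 590 genes with a coding sequence of at least 5000 nt, whose median level was 7.04.

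Sptbn1 (ENSMUSG00000020315) encodes beta-II spectrin, the widely expressed beta chain that runs along axons. It had 1485 and 4869 footprints and a level of 112 in replicate 1 and 130 in replicate 2, or 121 ± 12.9 (SD, n = 2). Sptbn4 (ENSMUSG00000011751) encodes beta-IV spectrin, the beta chain of axon initial segments and nodes. It had 124 and 351 footprints, and its levels of 8.64 and 8.68 were almost equal in the replicates, at a mean of 8.66 ± 0.0261. Sptbn1 was thus far above Sptbn4 in both libraries, with no overlap.

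Sptb, the beta chain of red cells and muscle that some neurons also make, had 147 and 355 footprints and a level of 10.5 ± 1.14 (SD, n = 2). Sptbn5 had 1 and 4 footprints. Sptb was above Sptbn4 in level in both replicates, at 11.3 against 8.64 and at 9.65 against 8.68. Their counting intervals overlapped in each replicate, at 9.52 to 13.2 against 7.19 to 10.3 and at 8.67 to 10.7 against 7.79 to 9.64. When levels of single coding transcripts were added, Sptbn4 was at 13.4 and 13.0, so this order can depend on the length used.

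Adducin works as alpha chains paired with beta or gamma chains, which the genes Add1, Add2 and Add3 encode in that order. Add1 (ENSMUSG00000029106), made in most tissues, had 659 and 2279 footprints and a level of 160 in replicate 1 and 196 in replicate 2, or 178 ± 25.7 (SD, n = 2). Add3 (ENSMUSG00000025026), the widely expressed gamma chain, had 375 and 1160 footprints and levels of 94.7 and 104, a mean of 99.3 ± 6.53. Add2 (ENSMUSG00000030000), the beta chain of red cells and brain, had 363 and 761 footprints and levels of 89.3 and 66.4, a mean of 77.8 ± 16.2. Add1 was above each of the others in both replicates, and Add3 was above Add2 in both.

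Add1 stood at 0.869 times the sum of Add2 and Add3 in replicate 1 and at 1.15 times in replicate 2, which averaged 1.01 ± 0.200 (SD, n = 2). The replicates lay on opposite sides of 1. This ratio depended on the length used: it was 1.59 when levels of single coding transcripts were added. Add1 has 10 coding transcripts, 5 of them with short coding sequences, while Add2 has 1 and Add3 has 3. Add2 took 48.5% of the summed level of Add2 and Add3 in replicate 1 and 39.0% in replicate 2.

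**Figure D2:**
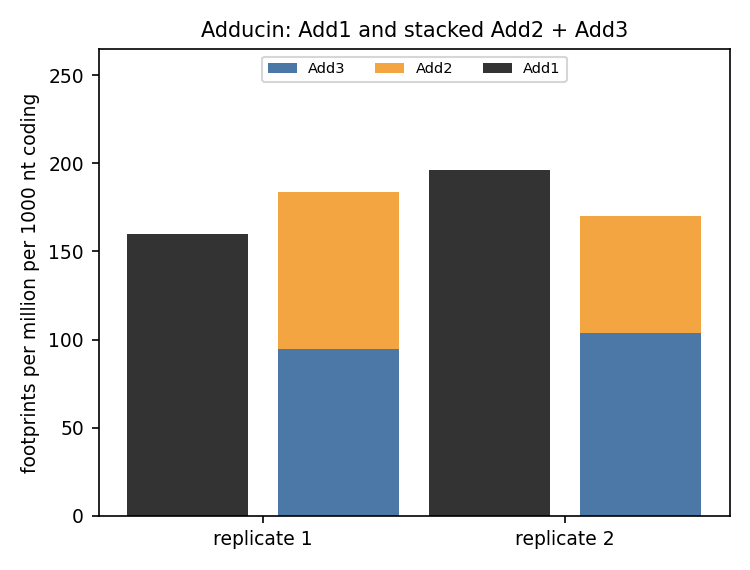
Levels of the adducin genes in each replicate, in CPM per 1000 nt of coding sequence, with Add1 beside the stacked Add2 and Add3. The Add1 bar was below the stack in replicate 1 and above it in replicate 2.

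Ank2 (ENSMUSG00000032826) encodes ankyrin-B, which is spread along axons and is abundant in developing brain. It had 898 and 3172 footprints, and its level was 99.0 in replicate 1 and 124 in replicate 2, or 111 ± 17.7 (SD, n = 2). The longest of its coding sequences analysed here was 4861 nt, on a transcript with no annotated 3′ untranslated region. The level would be lower over a longer coding sequence, and was 174 over the 3117 nt of its coding transcript with the most footprints. Ank3 (ENSMUSG00000069601) encodes ankyrin-G, the organiser of the axon initial segment. It had 554 and 1974 footprints and levels of 34.5 and 43.6, a mean of 39.0 ± 6.44, so it lay below Ank2 in both replicates without overlap. Among genes with a coding sequence of at least 5000 nt, Ank3 was at percentile 94.1.

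Ank1 (ENSMUSG00000031543) encodes ankyrin-R, first known from red cells and also made by some neurons. It was the least abundant of the group, with 43 and 166 footprints and levels of 4.02 and 5.51, a mean of 4.77 ± 1.05 (SD, n = 2). At 27.3 ± 6.02 CPM it lay at percentile 43.0 of coding genes, before any division by length. Its binding partner in red cells, the anion exchanger Slc4a1, had 5 and 17 footprints, or 2.95 ± 0.391 CPM. The red cell membrane gene Epb4.2 (protein 4.2) had 1 footprint in each library and was thus below the floor. Alas2, which starts haem synthesis, had 20 and 91, and globin genes reached up to 716 ± 195 CPM. In CPM, Sptb, at 73.1 ± 7.97, and Ank1 were both above Slc4a1 and Epb4.2 in each replicate, and below the globin genes. Per coding length, Slc4a1 was at 0.960 and 1.16, below Ank1, while Alas2 was at 6.07 and 9.80, above Ank1 in both replicates. The part of red cells in the Ank1 footprints was not tested.

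Ankyrin and spectrin genes make forms of different length, and the table gives a count for each annotated transcript. Transcripts of a gene share most of their sequence. In 39 pairs of same-gene transcripts with identical lengths, the squared gap between counts, divided by their total, averaged 1.01. A value of 1 is expected for independent counts, and also where each shared fragment is placed at random on 1 transcript. The measure cannot tell these apart, whereas 0 would mean that a shared fragment was counted on both. The same measure over the 6 full-length Sptan1 transcripts, set against their lengths, was 1.02 in replicate 1 and 2.39 in replicate 2, the second of them above the value of 1. Fragments shared between transcripts and fragments found on a single transcript were not separated here. Below, transcript density is in CPM per 1000 nt of transcript.

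The 6 full-length forms of Sptan1 held most of its footprints. These 6 transcripts with coding sequences of 7359 to 7497 nt had 278 to 310 footprints in replicate 1 and 962 to 1077 in replicate 2, and together held 89.3% and 89.9% of the gene's footprints. The form with the most footprints over both replicates, Sptan1-004, had 278 and 1077. Sptbn1 behaved likewise: its 4 coding transcripts took 93.4% and 94.8%, led by Sptbn1-001 with 402 and 1271 footprints. Its pair with coding sequences of 7092 nt took 51.8% ± 0.706 (SD, n = 2) and the shorter pair, Sptbn1-002 and Sptbn1-007, 42.3% ± 1.67.

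Sptbn4 is known for a long form and a short form that lacks the front part of the protein. Its long transcripts, Sptbn4-001 and Sptbn4-201, had 41 and 34 footprints in replicate 1 and 112 and 102 in replicate 2. Their share of the gene's footprints was 60.5% in replicate 1, with a counting interval of 51.3 to 69.1, and 61.0% in replicate 2, with 55.6 to 66.1. The 3 short transcripts, each with a coding sequence of 3726 nt, held 37.9% (29.3 to 47.1) and 37.3% (32.2 to 42.6). Both shares were almost the same in the replicates. Densities were 2.47 ± 0.0547 for Sptbn4-001 and 1.96 ± 0.106 for Sptbn4-005, the short transcript with the most footprints. Sptbn4-001 was the denser in both replicates, but Sptbn4-005 had only 18 and 47 footprints. The part that fragments shared between the forms have in this order was not tested.

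Ank3 is known for giant neuronal forms that carry an extra very long exon. The transcript with the longest coding sequence, Ank3-038 (8612 nt, with no annotated untranslated regions), had 112 footprints in replicate 1 and 416 in replicate 2. It held 20.2% of the gene's footprints in replicate 1, with a counting interval of 16.9 to 23.8, and 21.1% in replicate 2, with 19.3 to 22.9, more than any of the other 43 transcripts. Its density was 6.97 in replicate 1 and 9.18 in replicate 2. The 8 transcripts with coding sequences of 5000 to 6000 nt had densities of 1.38 to 2.37 in replicate 1 and 1.70 to 2.47 in replicate 2. Ank3-038 was thus above all 8 of them in both replicates, at 3.66 and 4.11 times their median. The lengths of some of the 8 include untranslated regions, which span 450 and 3627 nt in Ank3-001 and lower its density. Over coding length alone, Ank3-038 had 13.0 and 48.3 footprints per 1000 nt in replicates 1 and 2. The 8 transcripts pooled had 4.17 and 13.2. The part that fragments shared between transcripts have in this difference was not tested. Shorter coding transcripts, of up to 5000 nt, reached densities of 7.02 in replicate 1 and 4.27 in replicate 2 on low counts. In replicate 1 Ank3-038 was thus not the densest of the gene.

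The next longest coding transcript, Ank3-005 (7867 nt), had 50 and 188 footprints and densities of 3.22 and 4.30. It too was above the 8 transcripts of 5000 to 6000 nt in both replicates, while Ank3-038 was 2.16 and 2.13 times denser. With both transcripts counted, forms of over 6000 nt held 29.9% ± 0.959 (SD, n = 2) of the gene's footprints. A further transcript with many footprints was Ank3-029, annotated as a target of nonsense-mediated decay, with 36 and 127. No sequence of the transcripts was used, so whether Ank3-038 and Ank3-005 hold the giant exon was not tested. The part of shared fragments in the density of Ank3-005 was not tested either.

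**Figure D3:**
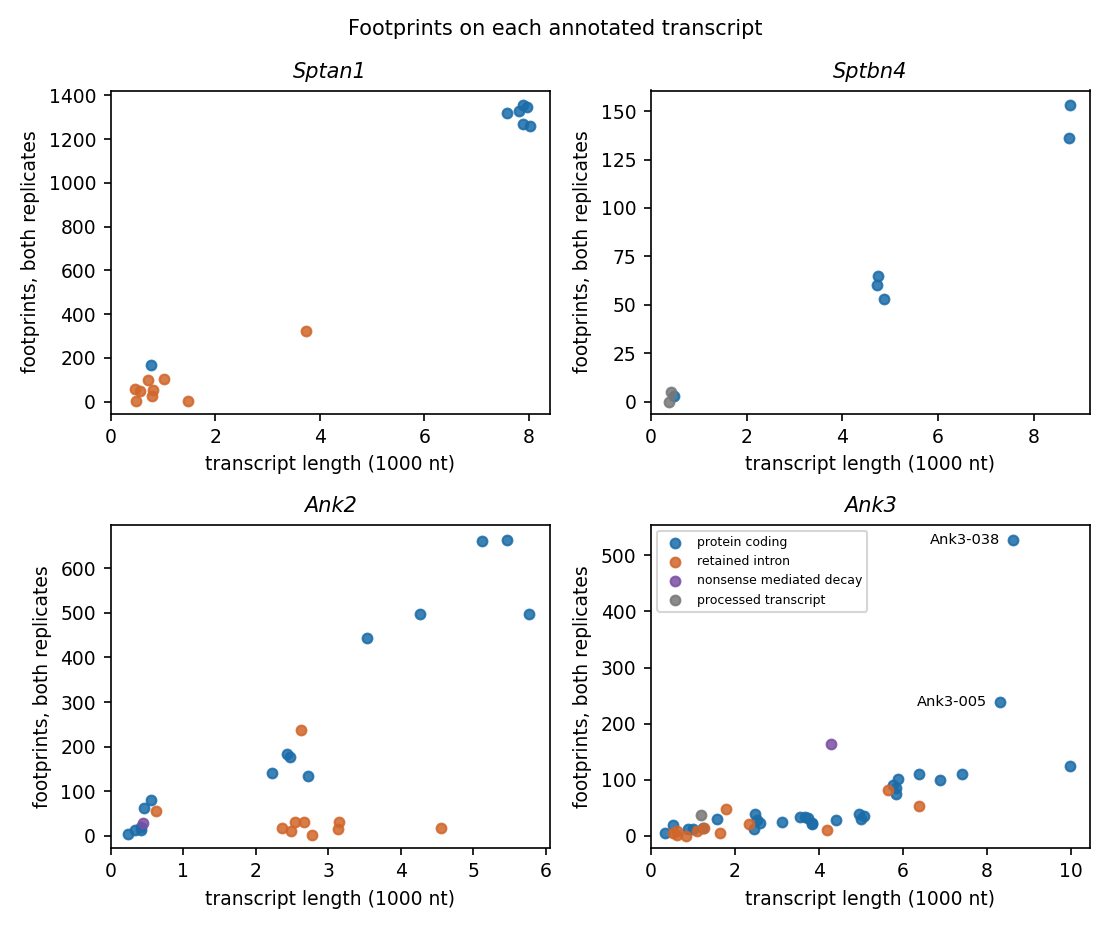
Footprints summed over both replicates on each annotated transcript of Sptan1, Sptbn4, Ank2 and Ank3, against transcript length in units of 1000 nt and coloured by annotated class. Counts rose with length, and in Ank3 the transcripts Ank3-038 and Ank3-005 stood above others of like length.

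Ank2 footprints lay mostly on 5 transcripts with coding sequences over 3000 nt, which took 68.8% ± 2.24 (SD, n = 2). The leading transcripts were Ank2-022, with 171 and 493 footprints, Ank2-024, with 134 and 526, and Ank2-001, with 106 and 392. Densities of the first pair were nearly equal per transcript length, at 17.0 ± 0.271 and 16.8 ± 3.89. Ank2-022 has a 3′ untranslated region of 2343 nt and Ank2-024 has none annotated. Per 1000 nt of coding sequence, Ank2-022 had 54.9 footprints in replicate 1 and 158 in replicate 2, against 27.6 and 108 for Ank2-024. None of the Ank2 transcripts analysed here had a coding sequence over 8000 nt, so no share of giant ankyrin-B is given. Ank1 footprints lay mostly on 9 transcripts with coding sequences over 5000 nt, which took 78.7% ± 0.535. Ank1 also encodes a short form of the sarcoplasmic reticulum in muscle. The 3 Ank1 transcripts with coding sequences under 1000 nt had 0 footprints in replicate 1 and 1 in replicate 2.

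Within a gene, longer transcripts held more footprints. Spearman's rho between count and transcript length, over transcripts that share fragments, was 0.78 for Sptan1 (16 transcripts), 0.85 for Ank3 (44) and 0.86 for Ank1 (17). It was lower for Ank2, at 0.51 over 26 transcripts. Of the 138 transcripts, 5 had no footprint in either library and 97 passed the mean count of 10.

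Transcripts annotated with a retained intron usually share coding exons with their gene and so can hold fragments of the coding mRNA. They took 8.19% ± 0.211 of Sptan1 footprints (SD, n = 2), 5.92% ± 0.963 of Sptbn1, 11.1% ± 0.0720 of Ank2, 9.34% ± 2.48 of Ank3 and 6.80% ± 0.181 of Add1. Over all genes that have such a transcript the share was 19.1% ± 0.120, so each of these 5 genes was below it in both replicates. Ank1 has 2 such transcripts, with 1 footprint in replicate 1 and 0 in replicate 2. Sptbn4, Add2 and Add3 have no such transcript. The most abundant retained-intron transcripts were Sptan1-005, with 79 and 245 footprints, and Ank2-018, with 49 and 188. Per transcript length, Ank2-018 had a density of 11.8 ± 2.55, close to the 11.4 ± 2.17 of the coding transcript Ank2-001. That length includes untranslated regions, which in Ank2-001 span 277 and 2345 nt. The other Ank2 transcripts with coding sequences over 3000 nt were denser, at means of 15.5 to 17.4. Some shorter coding transcripts, such as Ank2-004 at 9.98, were less dense per transcript length. Untranslated regions of 227 and 731 nt make up part of the 2428 nt of Ank2-004. Ank2-018 has no annotated coding sequence, so the order of Ank2-004 and Ank2-018 can depend on the length used.

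Replicate 2 was set against replicate 1, gene by gene, in an exact binomial test (two-sided) that took the library sizes after TMM scaling (trimmed mean of M values). P-values were adjusted over 16427 genes, and a gene was called at an adjusted p under 0.05. It sets 2 libraries side by side and allows for no spread beyond counting. Of the markers, 6 of 8 neuronal genes were called lower in replicate 2, and 3 of 5 oligodendrocyte genes were called higher. Of the 7 red cell genes tested, the 4 globin genes were called lower. Alas2 and Slc4a1 had log2 ratios above 0, at 0.54 and 0.12, and were not called. The summed levels are given above, and their part in the ratios below was not tested. Of the 9 genes 5 were called, 4 higher and 1 lower in replicate 2. Over all genes 17.4% were called, 5.95% higher and 11.5% lower; among the 8060 genes whose count averaged 100 or more, as it did for all 9, the share was 34.0%. The median log2 ratio of the 9 genes was 0.15 and that of all genes tested was 0.0056.

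Add2 had the largest difference of the called genes. Its CPM was 194 in replicate 1 (95% interval 175 to 216) and 145 in replicate 2 (135 to 155), a ratio of 0.681 (0.601 to 0.774) with TMM scaling (exact binomial adjusted p = 1.41e-07). The intervals of the libraries did not overlap. Its log2 ratio was -0.55, and it was the gene of the group with a single annotated transcript.

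The genes called higher in replicate 2 had small ratios under TMM scaling. Sptan1 had 1066 CPM in replicate 1 and 1290 CPM in replicate 2, a ratio of 1.21 before TMM scaling and of 1.11 after it (95% interval 1.05 to 1.17; exact binomial adjusted p = 6.43e-04). The ratio was 1.15 (1.07 to 1.24; exact binomial adjusted p = 0.00263) for Ank2 and 1.16 (1.05 to 1.28; exact binomial adjusted p = 0.0161) for Ank3. It was 1.12 (1.03 to 1.23; exact binomial adjusted p = 0.0463) for Add1, which was no longer called when genes of any count were tested (adjusted p = 0.0719). Sptbn1 (1.07), Add3 (1.01), Ank1 (1.25) and Sptbn4 (0.920) were not called. When a gene was represented by its transcript with the most footprints, Ank2, Ank3 and Add1 lost their calls. The log2 ratio was then -0.021 for Ank2, but 0.34 for Ank3 and 0.23 for Add1, no smaller than over the whole gene.

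Scaling moved these values as a block. TMM lowers every log2 ratio by 0.13 from the ratio of library totals. With library totals 6 of the 9 genes were called, against 19.0% of all genes, with Sptbn1 added at a log2 ratio of 0.22, and Add2 stayed lower at -0.43. Over all genes the split then turned from 978 higher and 1883 lower to 1896 higher and 1227 lower. Sptbn4 was at -0.12 with TMM and 0.0061 with library totals, so its direction rests on the scaling.

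Most log2 ratios of the group rose when the trend of the log2 ratio with footprint density over all genes was removed by a lowess curve. Ank1 instead fell from 0.32 to 0.23 and Sptbn4 from -0.12 to -0.19, and neither was called. Add2 stayed lower in replicate 2, but its difference narrowed from -0.55. The log2 ratio was then 0.46 for Sptan1, 0.43 for Ank2, 0.38 for Add1, 0.26 for Ank3 and -0.45 for Add2. Sptbn1 was called as well, at 0.32 (exact binomial adjusted p = 3.49e-12), which made 6 of the 9 genes against 16.1% of all genes. The calls over all genes were then 1194 higher and 1458 lower.

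**Figure D4:**
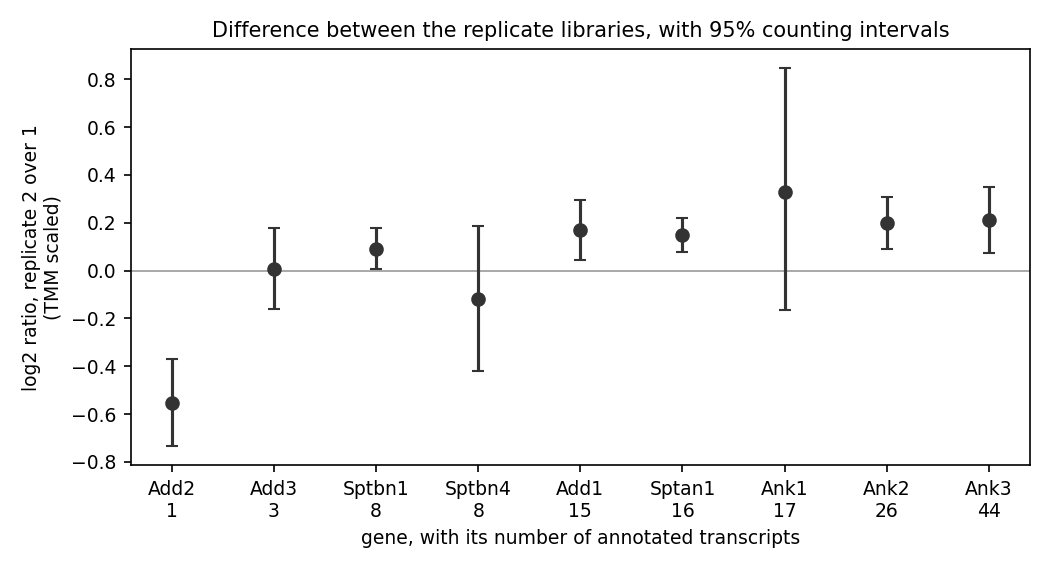
Log2 ratio of replicate 2 over replicate 1 for each gene after TMM scaling, with 95% counting intervals, ordered by the number of annotated transcripts printed under each name. Add2, with 1 transcript, was lowest at -0.55, and the genes with 15 or more transcripts all lay above 0.

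Of the 97 transcripts tested, 3 were called by the exact binomial test, adjusted over 43655 transcripts, of which 5.08% were called, 0.815% higher and 4.26% lower. These were Add2-201, Sptan1-004 with a log2 ratio of 0.33 (exact binomial adjusted p = 0.0140) and the retained-intron transcript Ank3-003. Ank3-003 had 6 footprints in replicate 1 and 76 in replicate 2, a log2 ratio of 1.89 (exact binomial adjusted p = 0.00329). With coding transcripts alone, Ank3 had a log2 ratio of 0.18, near its 0.21 over all transcripts, and was not called (exact binomial adjusted p = 0.0751). In the same setting Sptbn1 was called at 0.14 (exact binomial adjusted p = 0.0104). With library totals 7 of the 97 transcripts were called, against 4.35% of all transcripts tested.

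Other genes of the membrane skeleton were described from a list of 15, all found in the table, the protein 4.1 family under older names. Of the 13 that passed the minimum, 2 were called higher, 1 lower, and the median log2 ratio was -0.085. Apart from the spectrins, the highest levels belonged to Tmod2, a neuronal tropomodulin that caps the slow-growing end of actin filaments, at 306 ± 24.6 (SD, n = 2), to Epb4.1l1 (protein 4.1N of neurons) at 149 ± 10.9 and to Dmtn, the actin-bundling dematin, at 117 ± 1.39. The calls were Epb4.1, the red cell protein 4.1 gene (log2 ratio 0.62), Mpp1 (0.57) and Tmod2 (-0.29).

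Ankyrin partners at the axon initial segment and nodes were described from a list of 13, all above the minimum. Of these, 2 were called higher and 1 lower, with a median log2 ratio of 0.09. The highest levels were those of adhesion molecules that bind ankyrin: L1cam at 167 ± 4.43 (SD, n = 2), Chl1 at 119 ± 9.55 and Nrcam at 82.5 ± 8.75. Chl1 (-0.29) was called lower, and Ndel1, a dynein regulator (0.53), and Scn2a1, a sodium channel of immature axon initial segments (0.26), were called higher. Scn2a1 had a level of 47.9 ± 8.93 against 39.0 ± 6.44 for Ank3, and their replicate ranges overlapped.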

How the data were processed

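The authors deposited whole-number footprint counts per transcript, 1 column per replicate (n = 2), without normalization, beside annotated lengths. Per the submitters' processing notes, Trimmomatic 0.36, Bowtie2 2.2.6, SAMtools and the build GRCm38.p4 were used; roles, the annotation release, and the treatment of strand, duplicates and fragments with several matches are not given in the sources used here. Matched RNA was not analysed here, so values are footprint levels, not translational efficiencies.

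Counts of a gene's transcripts were summed, scaled to CPM and divided by the longest protein-coding sequence. TMM factors came from edgeR 4.0.16 over genes averaging 10 or more counts (0.957 and 1.04). With 1 group there is no contrast for a quasi-likelihood test, so the replicates were compared by exact binomial tests (scipy 1.17.1) with Benjamini-Hochberg adjustment. The tests were tried on simulated counts that held counting error alone, so this trial did not cover any further spread between libraries. Log2 ratios carry a prior of 0.5 CPM; ratios given with intervals do not. P-values measure only the difference between these 2 samples.

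The genes and lists were chosen with earlier results of these data known. Named were all 9 genes, other spectrins and, of each further list, the 3 highest levels and the called genes with the 3 largest absolute log2 ratios; of transcripts, the longest, the 3 with the most footprints where the text turns on them, and those called. Ank3-029, Ank3-005, the retained-intron transcripts and the red cell genes were singled out after their values were seen. The 5 protein 4.1 and 4.2 genes were matched through synonyms in a RefSeq gene table of GRCm38.p6, used for names alone. No sequence is printed. Some listed genes, and the ratio of alpha to beta spectrin, are not reported here.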

Additional observations from a re-analysis of the deposited data

How the results depend on the processing

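No paired analysis was possible because both samples belong to 1 group. Against 5 genes of the 9 called, the number was 2 with the transcript with the most footprints per gene and 0 with edgeR's exact test and a common dispersion, which also gave 0 of the 9 at an unadjusted p under 0.05; the exact binomial test gave 6 at that threshold. Those settings called 1444 and 11 genes in all, against 2861, and the dispersion was estimated from the same 2 libraries. Other settings called 4 to 6 of the 9. Ank2 reversed to a log2 ratio of -0.021 with the transcript with the most footprints. Transcripts called numbered 7 with library totals, against 3, while the share over all transcripts was 4.35% against 5.08%. The summed level of the 9 genes, 798, was 881 over the coding sequence of the coding transcript with the most footprints, 1074 as a sum over single coding transcripts, 567 over transcript length and 686 without Ank2, a setting chosen after seeing the data. The adducin ratio was 1.59 as a sum over single coding transcripts. The Ank3 share moved from 20.6% to 29.9% with forms over 6000 nt. With either replicate left out, the summed level was 744 to 851, the adducin ratio 0.869 to 1.15 and the Ank3 share 20.2% to 21.1%. Depth limits Ank1 and Sptbn4 most, whose ratios between replicates have intervals of 0.893 to 1.80 and 0.748 to 1.14.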

Other observations

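The log2 ratio between the replicates followed the number of annotated transcripts of a gene, a relation noticed after the data were examined. Over the 9 genes Spearman's rho was 0.90, from Add2 with 1 transcript to Ank3 with 44. Over all 16427 genes tested rho was 0.29, given as a description of 2 libraries. The median log2 ratio was -0.14 for the 6265 genes with 1 transcript, -0.07 for the 3084 with 2 to 3, 0.10 for the 5466 with 4 to 9 and 0.20 for the 1612 with 10 or more. Calls were 68 higher and 1025 lower among genes with 1 transcript, and 360 higher and 44 lower among genes with 10 or more. Add2, at -0.55, was still below the median of genes with 1 transcript, whereas Add1, Sptan1, Ank2 and Ank3, at 0.15 to 0.21, were close to the median of genes with 10 or more. Ank1, with 17 transcripts and few footprints, was above it at 0.32.

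Genes with a coding sequence of at least 5000 nt had a median log2 ratio of 0.11, with 80 called higher and 43 lower of 590. Of the 9 genes, 5 were above this length, with log2 ratios of 0.15 for Sptan1, 0.09 for Sptbn1, -0.12 for Sptbn4, 0.32 for Ank1 and 0.21 for Ank3.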
